A study of Mus musculus with 22 samples.

Results

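Secreted inhibitors of Wnt signalling were followed across embryonic mouse hearts with a conditional knockout of Prdm16 and their controls. The set holds 8 of the 54356 genes quantified: Dkk1, Dkk2, Dkk3, Sfrp1, Sfrp2, Sfrp5, Frzb and Wif1. Dkk3 was chosen by its strong rise in the conditional knockout (cKO) in these same libraries, so its cKO values are given as a description with no test. The other 7 genes were taken as its functional relatives. RNA was measured by bulk sequencing at stage E13.5 in 22 libraries from C57BL/6 mice. The cKO groups carry the Prdm16 conditional knockout. The controls are littermates, whose genetic manipulation is given as Mock and whose library names carry WT. There were 3 cKO and 3 control libraries of whole heart, 4 and 4 of isolated left ventricle, and 4 and 4 of isolated right ventricle. Prdm16 encodes a zinc finger transcription factor. The Cre line and the cells in which it acts are not given in the sources used here, nor is it stated whether left and right ventricles came from the same hearts. The p-values therefore measure the spread between these libraries.

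Wnt proteins are secreted lipid-modified ligands that bind Frizzled receptors together with the co-receptors Lrp5 and Lrp6, which stabilises beta-catenin (Ctnnb1) in the canonical branch. They also act through Ror1, Ror2, Ryk and Ptk7 in other branches. Secreted inhibitors act on the ligand or on the co-receptor. Sfrp1, Sfrp2, Sfrp5 and Frzb carry a cysteine-rich domain like that of Frizzled and bind the ligands, and Wif1 binds them through a domain of its own. Dkk1 and Dkk2 instead bind Lrp5 and Lrp6. Dkk3 is the most divergent of the Dickkopf proteins, and its part in Wnt signalling is less settled. In the developing heart, canonical Wnt signalling is known for keeping progenitors dividing, and it must be lowered for cardiomyocytes to mature.

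The 250 bases before the start of Dkk2 and Sfrp5 and the 206 before that of Wif1 are shown because these 3 genes differed between the ventricles, Dkk2 and Sfrp5 towards the left and Wif1 towards the right. They come from RefSeq (GRCm38.p6), whose promoter table matched 6 of the 8 genes. Each is written 5′ to 3′ on the strand of its gene. Both strands were searched for short cores of known motifs, and capitals mark any match. For the TCF/LEF factors that partner beta-catenin the letters were CTTTGA. For T-box factors the letters were AGGTGT. For GATA factors the letters were AGATAA. Dkk2 lies at chr3:132085042-132085291 (+), Sfrp5 at chr19:42202253-42202502 (−) and Wif1 at chr10:121033754-121033959 (+).
Dkk2: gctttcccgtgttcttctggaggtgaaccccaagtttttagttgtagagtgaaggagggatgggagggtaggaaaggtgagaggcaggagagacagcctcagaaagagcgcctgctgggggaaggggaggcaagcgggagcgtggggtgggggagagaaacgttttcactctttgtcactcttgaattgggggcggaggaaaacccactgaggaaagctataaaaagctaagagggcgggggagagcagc
Sfrp5: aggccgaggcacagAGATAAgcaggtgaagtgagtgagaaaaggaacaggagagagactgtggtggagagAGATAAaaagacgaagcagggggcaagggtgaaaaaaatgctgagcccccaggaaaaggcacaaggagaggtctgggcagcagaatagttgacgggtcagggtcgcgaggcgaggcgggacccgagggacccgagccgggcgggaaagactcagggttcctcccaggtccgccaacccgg
Wif1: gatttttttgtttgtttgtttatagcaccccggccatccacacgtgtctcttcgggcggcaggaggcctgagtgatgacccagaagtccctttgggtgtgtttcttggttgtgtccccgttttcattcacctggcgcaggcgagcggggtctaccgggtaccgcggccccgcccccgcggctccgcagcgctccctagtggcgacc
Sfrp5 held 2 matches, both to AGATAA, which start at bases 15 and 71 of the sequence and do not overlap. Neither CTTTGA nor AGGTGT was found in the 3 windows, and AGATAA was found only in that of Sfrp5. Of all 32851 promoters in the table, 13.8% held CTTTGA, 11.8% AGGTGT and 9.99% AGATAA in 250 bases, and 12.1%, 10.1% and 8.65% did in 206 bases. A match describes these letters and not a bound site.

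Whole heart libraries held 38590751 to 62004017 estimated reads and ventricle libraries 14508722 to 22830716. Prdm16 was lower in the cKO of every tissue, with −1.04 ± 0.094 (log2 fold change ± SE, adjusted p = 0.0019) in the whole heart, −1.19 ± 0.072 (adjusted p = 6.5e-09) in the left ventricle and −0.75 ± 0.072 (adjusted p = 3.0e-06) in the right. Its transcript was not lost: mean levels were 3.22 against 6.54 TPM in the whole heart, 4.30 against 7.42 in the left ventricle, where the libraries overlapped, and 3.60 against 5.54 in the right. Adjusted p values here and below come from edgeR’s quasi-likelihood test with Benjamini-Hochberg adjustment over all genes tested, and a gene is called when its adjusted p is under 0.05. A library of each kind of tissue stood apart, 2 in all. Right ventricle control 2 had 10 markers of cushion and fibroblast mesenchyme at 1411 TPM in sum (transcript abundance scaled by length and depth), against 611 to 669 in the other 3 right ventricle controls and 1802 to 1853 in the whole heart controls. Whole heart control 1 had reads on 19478 genes, against 25503 to 27150 in the other 5 whole hearts. The members' results that turn on these libraries are given with and without them. The 7 genes listed as ventricular cardiomyocyte markers (Myl2, Myh7, Irx4, Hey2, Mycn, Actc1 and Tnnt2) were abundant in sum in every ventricle library. Their sum was 35394 to 42555 TPM in the left ventricle cKO, wholly below its controls (45006 to 47843), and 47616 to 53916 in the right ventricle cKO against 45279 to 51769. In whole hearts it was 23549 to 25154 TPM in the cKO against 27102 to 28750. Of the 7, 6 were called lower in the cKO in the whole heart and left ventricle and 0 in the right. Of all genes, 2.07%, 13.4% and 4.19% were called lower in that order. Isl1, of the outflow tract, was at most 0.16 TPM in the ventricles except for 2.86 in right ventricle control 2. In bulk tissue, fewer cells of a type and less RNA per cell cannot be told apart.

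Dkk3 was high in every cKO library and low in every control. In whole hearts it measured 114, 111 and 118 TPM in the cKO and 41.1, 38.3 and 42.0 in the controls. Left ventricles read 89.5, 92.0, 89.5 and 101 TPM in the cKO and 15.1, 19.4, 16.3 and 17.0 in the controls. Right ventricles read 116, 77.6, 60.2 and 62.9 TPM in the cKO and 12.5, 38.3, 11.1 and 11.7 in the controls. The cKO and control libraries did not overlap in any of the 3 tissues, and right ventricle control 2, at 38.3, was the only ventricle control near the whole heart controls. On the fitted scale the cKO stood 1.44 ± 0.056 above control in the whole heart (2.70-fold), 2.38 ± 0.30 in the left ventricle (5.21-fold) and 2.12 ± 0.30 in the right (4.35-fold). Without right ventricle control 2 the right ventricle value was 2.71 ± 0.18 (6.54-fold) and the left stayed at 2.38 ± 0.16, and without whole heart control 1 the whole heart value was 1.48 ± 0.053. These contrasts are the ones by which the gene was selected.

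**Figure D1:**
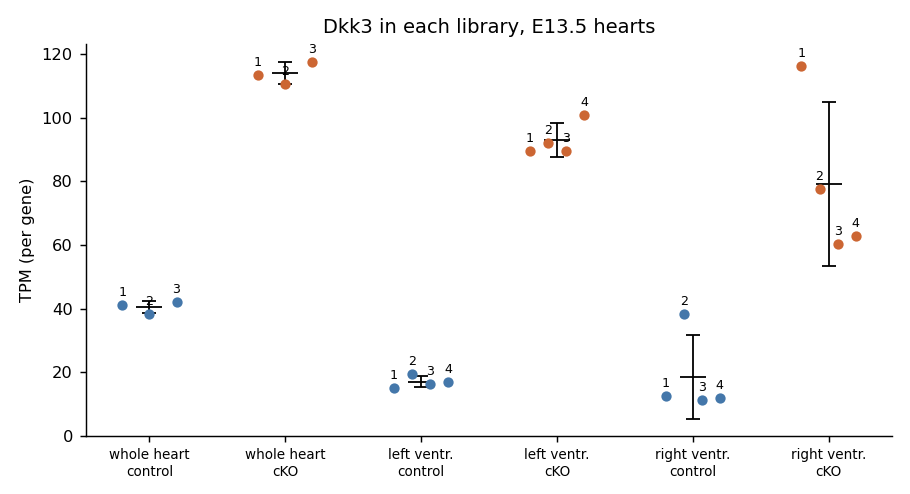
Dkk3 level in TPM (vertical axis) in each library of the 6 groups (horizontal axis), with the replicate number beside each point and the mean ± SD in black. The cKO libraries (orange) sit between 60.2 and 118 and the controls (blue) between 11.1 and 42.0, with right ventricle control 2 at 38.3.

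The order of the group means was whole heart cKO (114 ± 3.45 TPM, SD, n = 3), left ventricle cKO (93.0 ± 5.44, n = 4), right ventricle cKO (79.2 ± 25.8, n = 4) and whole heart control (40.5 ± 1.93, n = 3). Right ventricle control (18.4 ± 13.3, n = 4) and left ventricle control (17.0 ± 1.78, n = 4) came last. The left and right ventricle cKO libraries overlapped, and so did the left and right ventricle controls. Without right ventricle control 2 the right ventricle control mean was 11.8 ± 0.69 TPM (n = 3), below all 4 left ventricle controls. The left over right difference in controls is another contrast than the one that chose the gene, but it uses the same control libraries. It was −0.15 ± 0.30 (adjusted p = 0.78), and 0.44 ± 0.18 (adjusted p = 0.080) without that library, so it was not called either way and changed sign. Within the cKO the left over right value was 0.11 ± 0.28, given with no test.

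Dkk3 spans chr7:112116017-112159057 (− strand, GENCODE M21, GRCm38). Its reads fell on 1 annotated transcript, and no other annotated gene overlaps it, so none of its reads had to be shared out between transcripts. The 13 genes listed as markers of atrial cardiomyocytes were also higher in sum in the cKO of each tissue. They were Myl7, Myl4, Nppa, Sln, Nr2f1, Nr2f2, Kcnj3, Kcnj5, Kcna5, Mybphl, Stard10, Tbx5 and Bmp10. In the whole heart they summed to 8311 to 9571 TPM in the cKO against 5280 to 6074 in controls. The sums were 14016 to 16205 against 7325 to 8610 in the left ventricle, and 9236 to 11323 against 5920 to 6844 in the right. This sum was highest in the left ventricle cKO, while the mean of Dkk3 was highest in the whole heart cKO. A sum weighs the most abundant genes most, and it does not show whether atrial cells were present. Sln, on this list, overlapped in the left ventricle (0.19 to 0.96 TPM in the cKO, 0.097 to 1.93 in controls). Of these 13, 8 were called higher in each tissue. Of all genes, 1.96% were called higher in the whole heart, 12.3% in the left ventricle and 6.12% in the right. Markers of cushion and fibroblast mesenchyme summed to 903 to 1091 TPM in the left ventricle cKO against 679 to 1062 in its controls, and to 615 to 764 in the right ventricle cKO against 611 to 669 in the 3 controls other than control 2. The mean Dkk3 level of the right ventricle cKO was 6.74 times that of those 3 controls. Markers of endothelium and endocardium were also higher in the cKO with no overlap, at 560 to 602 TPM in sum against 454 to 499 in the whole heart, 593 to 658 against 466 to 495 in the left ventricle and 491 to 524 against 445 to 473 in the right. Of these 10 markers, 2, 7 and 3 were called higher in that order, beside 1.96%, 12.3% and 6.12% of all genes. Epicardial markers summed to 199 to 224 TPM against 181 to 189 in the whole heart and 211 to 236 against 166 to 176 in the left ventricle. In the right they summed to 137 to 166 against 135 to 161. In the same order 0, 8 and 1 of 10 were called higher, beside those same shares of all genes. Ventricular cardiomyocyte markers were lower in the whole heart and left ventricle, as given above. The part of any of these cell types in the Dkk3 values was not tested.

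Across the 22 libraries the 5 genes whose log2(TPM + 1) was most like that of Dkk3 were Ppp1r17 (Pearson r = 0.977), Slc39a8 (0.959), Slc35b4 (0.950), Spon1 (0.950) and Tiam2 (0.942). They were taken from 10934 genes whose mean level reached 5 TPM. The points share the 6 groups, so the values describe a common ranking of groups and carry no p. Ppp1r17, a phosphatase inhibitor, averaged 5.55 TPM in whole heart controls and 27.1 in the cKO, 1.82 and 17.9 in the left ventricle, and 1.74 and 14.3 in the right. Slc39a8, a zinc and manganese importer, averaged 8.98 and 27.7, 5.82 and 22.8, and 4.99 and 16 in the same order. Spon1, a secreted matrix protein, averaged 42.7 and 78.4, 35.3 and 64.6, and 29.5 and 65.4. In right ventricle control 2, where Dkk3 was high for its group, Ppp1r17 was 3.19 TPM, Slc39a8 5.84 TPM and Spon1 30.8. The group means of 1.74, 4.99 and 29.5 include that library, so they understate its distance from the other controls.

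Dkk2, a ligand of Lrp5 and Lrp6, was low but patterned. It read 1.27, 1.21, 1.25 and 1.67 TPM in the left ventricle cKO and 0.558, 0.15, 0.811 and 0.591 in the left ventricle controls, with no overlap. In the right ventricle it read 0.168, 0.250, 0.0175 and 0.116 TPM in the cKO and 0.0843, 0.716, 0.114 and 0.207 in the controls, where control 2 was again highest. Within the cKO, Dkk2 in the left ventricle exceeded the right by 3.18 ± 0.60 (9.09-fold, adjusted p = 6.4e-04). In controls the same difference was 0.88 ± 0.56 (adjusted p = 0.30), and 1.88 ± 0.54 (adjusted p = 0.015) without right ventricle control 2. The left ventricle cKO effect was 1.32 ± 0.51 (adjusted p = 0.067), and 1.32 ± 0.39 (adjusted p = 0.017) without that library, whose spread enters the shared fit. Whole hearts read 2.63, 2.16 and 2.29 TPM in the cKO and 1.91, 1.43 and 1.42 in the controls, an effect of 0.49 ± 0.19 (adjusted p = 0.24) that was 0.70 ± 0.14 (adjusted p = 0.022) without whole heart control 1. The right ventricle effect was −0.99 ± 0.66 (adjusted p = 0.41), and 0.02 ± 0.62 (adjusted p = 0.99) without control 2. A difference between the ventricles in the cKO effect of Dkk2 was not called, at 2.31 ± 0.83 (adjusted p = 0.21), and 1.30 ± 0.75 (adjusted p = 0.50) without right ventricle control 2. These levels rest on 1 to 95 estimated reads in each ventricle library, and the right ventricle values on 1 to 44.

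Dkk1, the founding inhibitor of Lrp6, was near the limit of what this depth shows. It had 12.6 to 30.6 estimated reads in whole hearts (0.197 to 0.358 TPM) and at most 13.6 in any ventricle library, and it passed the filter on low counts only in whole hearts. There the cKO differed from control by 0.03 ± 0.44 (adjusted p = 0.98). It was not tested in the ventricles with that filter.

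Sfrp1, which binds Wnt ligands, was the steadiest gene of the set. Its level was 88.0, 84.6 and 91.3 TPM in the whole heart cKO and 74.3, 92.8 and 84.4 in the controls. Left ventricles read 65.3, 61.5, 53.7 and 65.5 TPM in the cKO and 66.6, 66.0, 65.7 and 69.1 in the controls. Right ventricles read 66.6, 59.4, 58.6 and 63.9 TPM in the cKO and 59.4, 72.5, 52.7 and 60.4 in the controls. Its 6 group means lay between 61.3 and 88.0 TPM, and cKO and control libraries overlapped in the whole heart and right ventricle, while all 4 left ventricle cKO libraries lay just below the 4 controls. The cKO effects were −0.08 ± 0.043 (adjusted p = 0.41) in the whole heart, −0.17 ± 0.060 (adjusted p = 0.0507) in the left ventricle and 0.04 ± 0.060 (adjusted p = 0.74) in the right. The left ventricle value was −0.17 ± 0.050 (adjusted p = 0.019) without right ventricle control 2. Within the cKO, Sfrp1 was called lower on the left (−0.17 ± 0.060, adjusted p = 0.041), a 1.12-fold difference. That call was lost when libraries were scaled by their totals (−0.09, adjusted p = 0.32) or tested as log2(TPM + 1) (−0.02, adjusted p = 0.90), where the median of all genes stood at 0.106. It was also lost in 5 of the 8 fits that left out 1 of these libraries, namely left ventricle cKO 2 or 3 or right ventricle cKO 1, 3 or 4 (weakest −0.13, adjusted p = 0.13, without left ventricle cKO 3). Its 4 left and 4 right TPM values overlapped.

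Sfrp2, a relative of Sfrp1, was high in whole hearts and low in isolated ventricles. It lies at chr3:83766321-83774316 (+ strand), where the antisense gene Gm26771 overlaps it. It read 93.5, 77.3 and 89.9 TPM in the whole heart cKO and 69.7, 68.7 and 65.7 in the controls. Left ventricles read only 4.90, 4.14, 2.83 and 6.09 TPM in the cKO and 2.06, 1.90, 3.94 and 7.45 in the controls. Right ventricles read 1.2, 1.81, 1.15 and 4.81 TPM in the cKO and 3.45, 89.9, 1.23 and 3.34 in the controls. The mean of the whole heart controls was 17.7 times that of the left ventricle controls and 25.5 times that of the right ventricle controls without control 2; these are descriptions, since whole hearts and ventricles were fitted apart. Right ventricle control 2 alone, at 89.9 TPM, was at the whole heart level, and it carried the mesenchyme markers Postn at 266 TPM against 42.0 to 47.6 in the other 3 controls and Meox1 at 25.8 against 1.45 to 1.89. That library set the fitted right ventricle effect, which was −3.28 ± 1.02 (adjusted p = 0.052) with it and −0.18 ± 0.53 (adjusted p = 0.88) without it. Left over right in controls was −2.66 ± 0.97 (adjusted p = 0.062) with it and 0.44 ± 0.51 (adjusted p = 0.57) without it. The left ventricle effect was 0.08 ± 1.06 (adjusted p = 0.97). In whole hearts the TPM of the 2 genotypes did not overlap, with a ratio of means of 1.28, but the test on counts gave 0.09 ± 0.12 (adjusted p = 0.75), and 0.25 ± 0.061 (adjusted p = 0.0502) without whole heart control 1. Mesenchyme markers were also higher in the whole heart cKO, at 2122 to 2389 TPM in sum against 1802 to 1853, and their part in the Sfrp2 values was not tested.

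**Figure D2:**
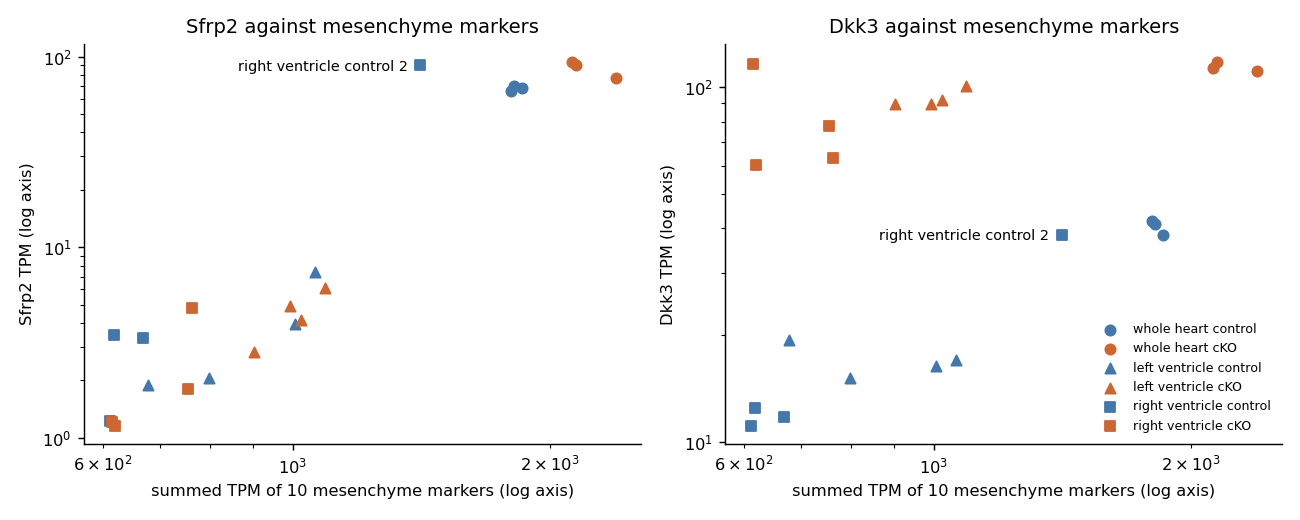
Sfrp2 (left) and Dkk3 (right) in TPM against the summed TPM of 10 mesenchyme markers in each of the 22 libraries, both axes logarithmic, with blue for control, orange for cKO, circles for whole heart, triangles for left and squares for right ventricle. Right ventricle control 2 (1411 TPM of markers) lies beside the whole hearts for Sfrp2, and its Dkk3 level (38.3) is close to theirs among the controls.

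Sfrp5, another ligand-binding inhibitor, marked the left ventricle. It read 4.33, 4.49, 4.34 and 5.82 TPM in the left ventricle cKO and 3.62, 4.54, 4.13 and 5.10 in the left ventricle controls. The right ventricle cKO read 1.55, 0.579, 0.648 and 0.456 TPM and the right ventricle controls 0.789, 0.281, 0.269 and 0.646. Every left ventricle library lay above every right ventricle library. Left exceeded right by 3.01 ± 0.33 in controls (8.03-fold, adjusted p = 1.3e-05) and by 2.29 ± 0.31 in the cKO (4.89-fold, adjusted p = 3.9e-05), and by 2.80 ± 0.33 in controls without right ventricle control 2. Whole hearts lay between, at 2.68, 2.70 and 2.46 TPM in the cKO and 1.71, 2.42 and 2.06 in the controls. No cKO effect on Sfrp5 was called, with 0.14 ± 0.15 (adjusted p = 0.68) in the whole heart, 0.02 ± 0.28 (adjusted p = 0.97) in the left ventricle and 0.73 ± 0.37 (adjusted p = 0.25) in the right, which was 0.53 ± 0.38 (adjusted p = 0.42) without right ventricle control 2. The 2 matches to AGATAA printed above for its promoter are the only ones found among the 3 windows.

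Frzb, the fourth gene with a Frizzled-like domain, was higher in whole hearts (11.3, 10.1 and 9.81 TPM in the cKO, 6.83, 8.19 and 10.1 in the controls) than in isolated ventricles. Left ventricles read 4.05, 4.25, 4.01 and 4.78 TPM in the cKO and 1.95, 3.86, 4.03 and 5.56 in the controls. Right ventricles read 2.76, 1.76, 2.63 and 2.99 TPM in the cKO and 3.03, 5.71, 2.02 and 2.23 in the controls. Right ventricle control 2 was once more the highest of its group. With it, left over right was 0.12 ± 0.23 (adjusted p = 0.78) in controls and 0.48 ± 0.23 (adjusted p = 0.13) in the cKO. Without it these were 0.50 ± 0.16 (adjusted p = 0.025) and 0.48 ± 0.14 (adjusted p = 0.015), both called. The cKO effects were 0.18 ± 0.11 (adjusted p = 0.44) in the whole heart, 0.16 ± 0.23 (adjusted p = 0.67) in the left ventricle and −0.20 ± 0.24 (adjusted p = 0.67) in the right, and none was called. Without right ventricle control 2 the right ventricle value was 0.18 ± 0.16 (adjusted p = 0.52). A second annotated transcript held 0% to 27.3% of the reads of Frzb.

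Wif1, which captures Wnt ligands through its own domain, marked the right ventricle. The right ventricle cKO read 6.87, 7.66, 3.71 and 3.89 TPM and the controls 3.01, 3.46, 4.31 and 3.61. The left ventricle read only 0.820, 0.679, 0.871 and 0.690 TPM in the cKO and 0.441, 0.443, 0.471 and 0.509 in the controls. Every right ventricle library exceeded every left ventricle library. Left over right was −2.90 ± 0.22 in controls (7.45-fold lower on the left, adjusted p = 2.0e-07) and −2.96 ± 0.21 in the cKO (7.79-fold, adjusted p = 4.8e-08). Smooth muscle markers were also higher on the right, at 1536 to 1779 TPM in sum against 711 to 821 in controls. In the cKO they were 1309 to 1677 against 621 to 780, and their part in the Wif1 values was not tested. With all libraries, Wif1 was the only one of the 7 other genes with a cKO effect called by edgeR in any tissue. It rose by 0.60 ± 0.18 in the right ventricle (1.52-fold, adjusted p = 0.038), although cKO replicates 3 and 4 lay within the range of the controls. The call was lost without right ventricle control 2 (0.54 ± 0.19, adjusted p = 0.068) and without cKO replicates 1 or 2 or control replicates 1 or 4 (lowest 0.43, adjusted p = 0.15, without cKO replicate 2).

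Wif1 lay above control in the other tissues too without passing the test on all libraries. Whole hearts read 5.32, 5.34 and 6.63 TPM in the cKO and 1.75, 3.81 and 2.26 in the controls, with no overlap and an effect of 0.83 ± 0.19 (adjusted p = 0.054). Without whole heart control 1 that was 0.71 ± 0.17 (adjusted p = 0.043). The left ventricle groups did not overlap either, with 0.54 ± 0.25 (adjusted p = 0.14) on 13 to 27 estimated reads a library. The difference between the ventricles in the cKO effect was −0.06 ± 0.33 (adjusted p = 0.97). A second transcript held 0% to 41.6% of the reads of Wif1, so its TPM can depend on how reads were shared between transcripts. In the whole heart the ratio of mean TPM was 2.21 against a fitted 1.78-fold on counts. Sfrp5, with 1 annotated transcript, also stood higher by mean TPM there (1.27) than on counts (1.10-fold). The reason for these gaps was not tested.

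**Figure D3:**
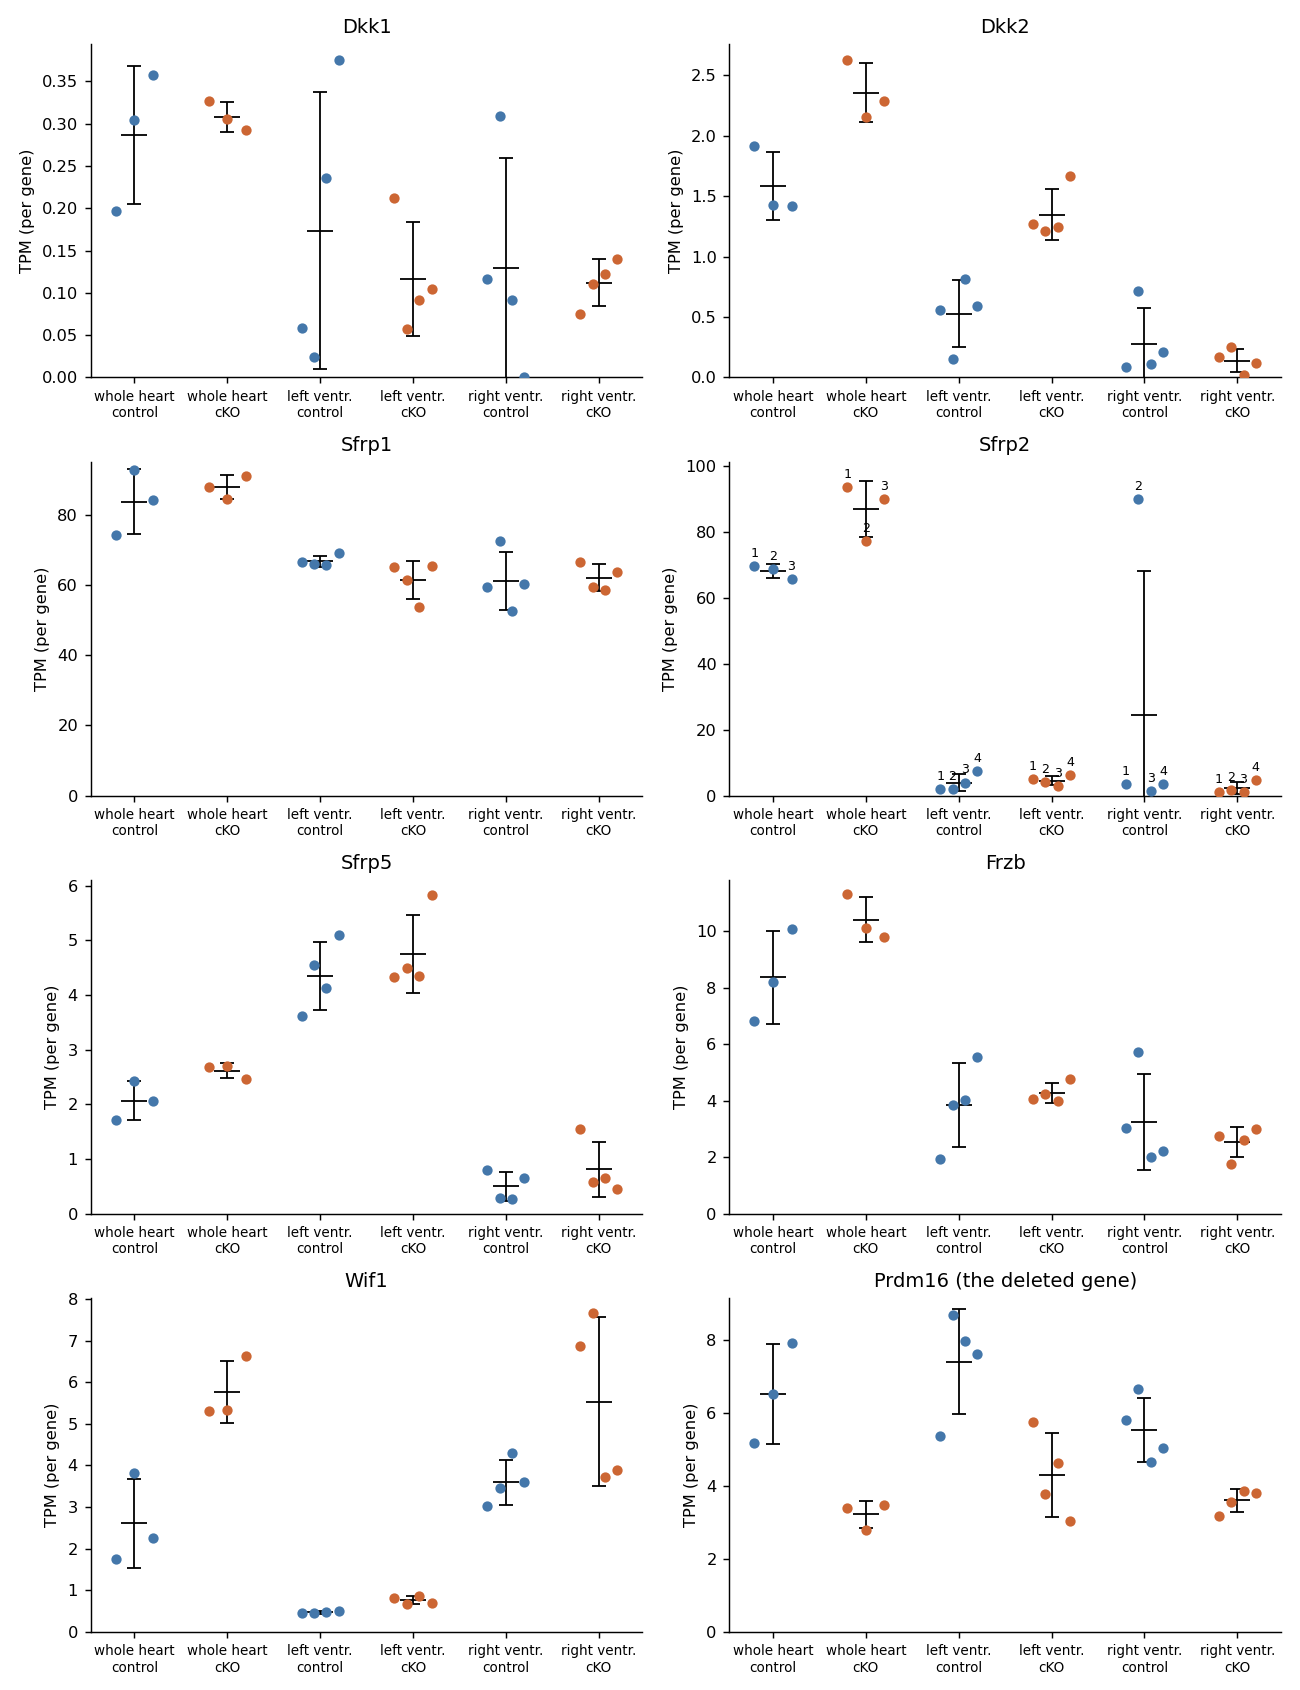
Level in TPM (vertical axes, each from 0) of the other 7 genes and of Prdm16 in each library of the 6 groups, blue for control and orange for cKO, with the mean ± SD in black and replicate numbers beside the Sfrp2 points. Sfrp5 is high in the left ventricle (3.62 to 5.82) and Wif1 in the right (3.01 to 7.66), and Sfrp2 is high in whole hearts and in right ventricle control 2 (89.9).

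Set side by side per length, Sfrp1 was the most abundant inhibitor in the ventricle controls (66.8 ± 1.53 TPM on the left, 61.3 ± 8.23 on the right, SD, n = 4). Dkk3 came next on the left, and on the right once control 2 was left out. With that library Sfrp2 averaged 24.5 ± 43.6 TPM on the right, above Dkk3 at 18.4 ± 13.3. In the ventricle cKO the order turned, and Dkk3 (93.0 on the left, 79.2 on the right) stood above Sfrp1 (61.5 ± 5.51 and 62.1 ± 3.78). On the left every Dkk3 value exceeded every Sfrp1 value, and on the right they overlapped. Whole heart controls held Sfrp1 (83.8 ± 9.26 TPM, n = 3), Sfrp2 (68.0 ± 2.06) and Dkk3 (40.5 ± 1.93) in that order. The whole heart cKO held Dkk3 (114 ± 3.45) above Sfrp1 (88.0 ± 3.36) and Sfrp2 (86.9 ± 8.52), and the last 2 overlapped. Frzb, Wif1, Sfrp5, Dkk2 and Dkk1 stayed at 11.3 TPM or below in all 22 libraries.

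In the whole heart 0 of the 7 other genes were called (2 at an unadjusted p under 0.05, and 1, Wif1, by DESeq2), where 1.96% of 19160 genes were called higher and 2.07% lower. In the left ventricle 0 of 6 tested were called (3 at an unadjusted p under 0.05, and 1, Sfrp1, by DESeq2), where 12.3% of 16448 genes were called higher and 13.4% lower. In the right ventricle 1 of 6 was called, higher, where 6.12% were called higher and 4.19% lower. For the difference between ventricles in the cKO effect 0 of 6 were called (3 at an unadjusted p under 0.05, 0 by DESeq2), beside 0.462% higher and 0.973% lower of all genes. Left against right in controls called 2 of 7 genes tested, Sfrp5 higher and Wif1 lower, beside 9.02% and 12% of all genes. Left against right in the cKO called 4 of 6, Dkk2 and Sfrp5 higher and Sfrp1 and Wif1 lower, beside 14.5% and 18.3%. Without right ventricle control 2 these became 4 of 7 and 5 of 6, with Dkk2 and Frzb added in controls and Frzb in the cKO. The shares over all genes rose as well, to 12.2% higher and 14.8% lower in controls and 16.7% and 19.4% in the cKO.

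**Figure D4:**
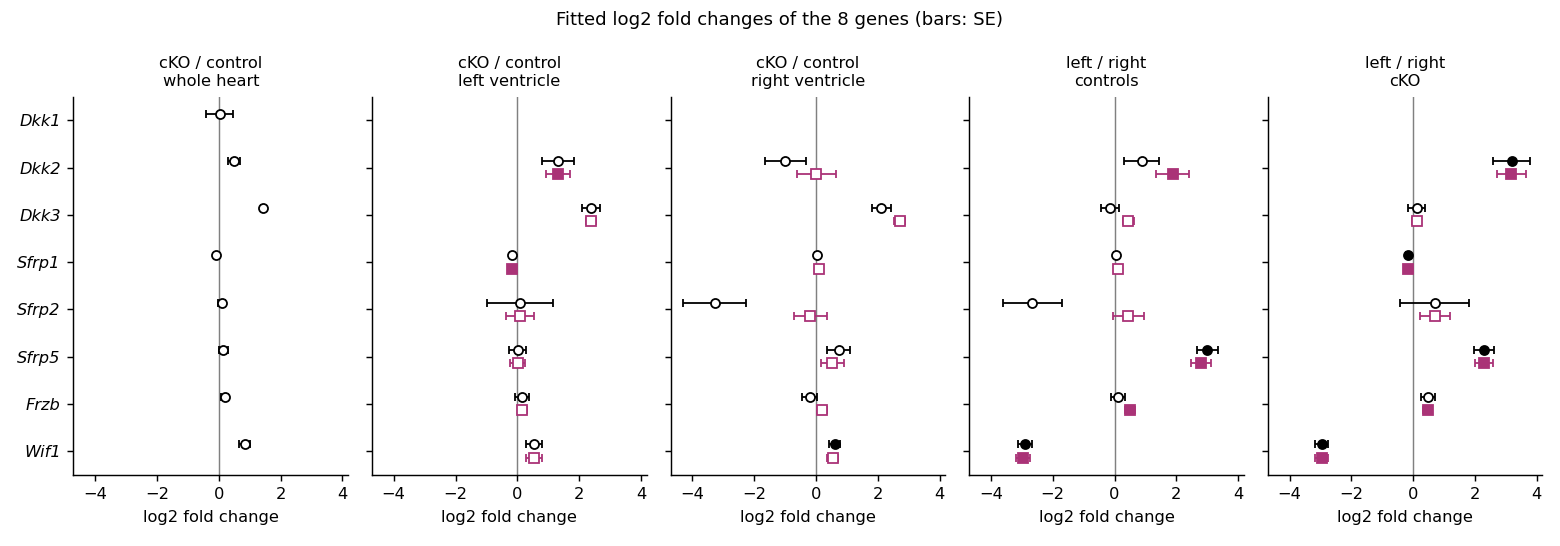
Fitted log2 fold change ± SE (horizontal axes) of each of the 8 genes in 5 comparisons, with circles for all libraries and squares for the fit without right ventricle control 2, filled where the adjusted p was under 0.05. Dkk3 carries no test where the cKO enters, and Dkk1 was tested only in the whole heart. Sfrp5 (3.01) and Wif1 (−2.90) lie on opposite sides in left against right ventricle controls, and Sfrp2 in the right ventricle moves from −3.28 to −0.18 without that library.

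The remaining Wnt pathway was described with 90 other genes in 8 lists by role, some genes standing in 2 lists. Of these, 80 were tested in the whole heart and 72 in the ventricles. The whole heart cKO had 2 called higher and 4 lower, with a median log2 fold change of 0.04 beside 0.01 for all genes, of which 1.96% were called higher and 2.07% lower. Without whole heart control 1 the counts were 3 and 5, beside 3.28% and 3.25% of all genes. The left ventricle had 11 higher and 7 lower and the right 5 higher and 5 lower, with medians of −0.0036 and 0.00041 beside −0.00083 and −0.0054 for all genes. In the left ventricle 12.3% and in the right 6.12% of all genes were called higher, and 13.4% and 4.19% lower. Without right ventricle control 2 the left ventricle counts were 13 higher and 9 lower of 73, beside 14% and 15.2% of all genes. The right ventricle counts were then 11 higher and 7 lower, beside 7.41% and 7.12%. The cKO effects of the genes named from these lists, 14 in the left ventricle, 10 in the right and 6 in the whole heart, kept their sign and their call without right ventricle control 2 or whole heart control 1. The one that moved by over 1.5 times was Fzd1 in the right ventricle. Of the 72, 5 were called in both ventricles, all in the same direction: Sost, Igfbp4, Wnt5a, Ror1 and Nkd2. The share of all genes called in both ventricles is not given here, so this count is a description and not a trait of the Wnt genes.

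Among secreted inhibitors outside the set, Sost, the sclerostin that binds Lrp5 and Lrp6, rose by 2.04 ± 0.19 in the left ventricle (adjusted p = 9.5e-07) and 0.98 ± 0.18 in the right (adjusted p = 0.0022). Its level was 3.84 to 6.08 TPM in the left ventricle cKO against 0.776 to 1.25 in controls, and 2.66 to 2.96 against 1.02 to 2.24 in the right. Igfbp4, an IGF-binding protein that can also block Frizzled and Lrp6, rose by 0.25 ± 0.049 (adjusted p = 0.0011) and 0.19 ± 0.049 (adjusted p = 0.017). These were 2 of the 4 genes tested on that list of 10, beside 12.3% of all genes called higher in the left ventricle and 6.12% in the right. On the membrane, Shisa3, which retains Frizzled inside the cell, fell in the right ventricle (−2.11 ± 0.43, adjusted p = 0.0039). Its level there was low, at 0.041 to 0.20 TPM in the cKO against 0.24 to 0.94 in controls. Without right ventricle control 2 the effect was −1.73 ± 0.42 (adjusted p = 0.0092). Kremen1, a receptor of Dkk1 and Dkk2, fell in the whole heart (−0.30 ± 0.050, adjusted p = 0.020) and right ventricle (−0.15 ± 0.046, adjusted p = 0.0497).

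Of 19 Wnt ligands, 10 were tested in the ventricles. Wnt5a, a ligand of the Ror receptors, rose by 0.93 ± 0.070 in the left ventricle (adjusted p = 7.7e-08), by 0.68 ± 0.071 in the right (adjusted p = 7.8e-06) and by 0.48 ± 0.094 in the whole heart (adjusted p = 0.036). Its level was 38.0 to 40.4 TPM in the left ventricle cKO against 17.8 to 20.8 in controls. The libraries overlapped in the right ventricle (19.2 to 27.5 TPM in the cKO, 12.2 to 20.7 in controls) and in the whole heart (37.5 to 41.4 and 24.8 to 40.3). Wnt11 rose in the left ventricle (0.37 ± 0.081, adjusted p = 0.0024) and Wnt16 fell there (−2.07 ± 0.50, adjusted p = 0.0055). Wnt2b (higher) and Wnt4 (lower) were called there too, beside 12.3% of all genes called higher and 13.4% lower. Wnt16 was low, at 0.042 to 0.62 TPM in the left ventricle cKO against 0.84 to 1.81 in controls. In the right ventricle Wnt16 was 0.22 to 1.28 TPM in the cKO against 1.30 to 2.15 in controls. DESeq2 and limma called it there, and edgeR did not. Wls, which carries Wnt proteins to the cell surface, rose in the left ventricle (0.27 ± 0.048, adjusted p = 3.9e-04). Lgr4, an R-spondin receptor, fell there (−0.33 ± 0.063, adjusted p = 9.7e-04).

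Of 16 receptors and co-receptors, 2 were called higher and 3 lower in the left ventricle, 0 and 2 in the right and 0 and 2 in the whole heart. Of all genes, 12.3% were called higher and 13.4% lower in the left ventricle. These shares were 6.12% and 4.19% in the right and 1.96% and 2.07% in the whole heart. Ror1 fell in all 3 tissues, with −1.02 ± 0.062 in the left ventricle (adjusted p = 6.5e-09), −0.75 ± 0.060 in the right (adjusted p = 3.8e-07) and −0.50 ± 0.088 in the whole heart (adjusted p = 0.023). Its level was 4.79 to 5.09 TPM in the left ventricle cKO against 9.0 to 10.5 in controls. Ror2 fell in the left ventricle (−0.31 ± 0.060, adjusted p = 0.0010) and whole heart (−0.44 ± 0.059, adjusted p = 0.0080). Ptk7, a co-receptor of the planar polarity branch, rose in the left ventricle (0.23 ± 0.055, adjusted p = 0.0053). Fzd1, a Frizzled receptor, fell in the right (−0.63 ± 0.16, adjusted p = 0.017), and by less without right ventricle control 2 (−0.35 ± 0.072, adjusted p = 0.0031). Inside the cell, 3 of 18 genes rose in the left ventricle, Ctnnb1, which encodes beta-catenin, by 0.16 ± 0.034 (adjusted p = 0.0017), the co-repressor Tle3 by 0.45 ± 0.068 (adjusted p = 1.2e-04) and Pygo2 by 0.10 ± 0.035 (adjusted p = 0.043). In the right ventricle 2 rose, Tcf7l2 by 0.20 ± 0.053 (adjusted p = 0.023) and the co-repressor Tle1 by 0.34 ± 0.10 (adjusted p = 0.042). By TPM the cKO and control libraries overlapped for Tle3 in the left ventricle and for Tcf7l2 and Tle1 in the right.

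Of 14 genes listed as canonical targets, 12 were tested in the ventricles and 1 was called there, lower. Of all genes, 13.4% were called lower in the left ventricle and 4.19% in the right. The target called was Nkd2, a feedback inhibitor that binds Dishevelled. It fell in all 3 tissues, with −1.15 ± 0.17 in the left ventricle (adjusted p = 1.1e-04), −1.44 ± 0.16 in the right (adjusted p = 1.5e-05) and −0.67 ± 0.11 in the whole heart (adjusted p = 0.016). In the whole heart the other gene called on that list rose, Apcdd1, a membrane inhibitor of the pathway (0.29 ± 0.060, adjusted p = 0.041). The median of the 12 was −0.11 in the left and −0.07 in the right ventricle, and 0.20 in the right without control 2. Axin2, the target most often used as a readout of the canonical branch, was 1.54 to 2.91 TPM in the left ventricle cKO and 1.76 to 2.61 in its controls. In whole hearts it was 3.60 to 4.98 TPM in the cKO and 2.99 to 3.55 in controls, with no overlap. The right ventricle libraries overlapped (0.53 to 1.24 and 0.62 to 2.05). A cKO effect on Axin2 was not called in any tissue. Left exceeded right in controls (1.06 ± 0.29, adjusted p = 0.015) and in the cKO (1.02 ± 0.29, adjusted p = 0.012). In the difference between ventricles 0 of 72 pathway genes were called (9 at an unadjusted p under 0.05, and 1, Sost, by DESeq2), beside 0.462% higher and 0.973% lower of all genes. Without right ventricle control 2 it was 3 of 73, all lower (Notum, Wnt4 and Wnt9b), beside 0.733% and 1.42%. Left against right in controls called 10 higher and 9 lower of 72, beside 9.02% and 12% of all genes, and 24 higher and 5 lower of 73 without that library, beside 12.2% and 14.8%. In the cKO these were 17 higher and 7 lower, beside 14.5% and 18.3%, and 24 and 10 without it, beside 16.7% and 19.4%.

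**Figure D5:**
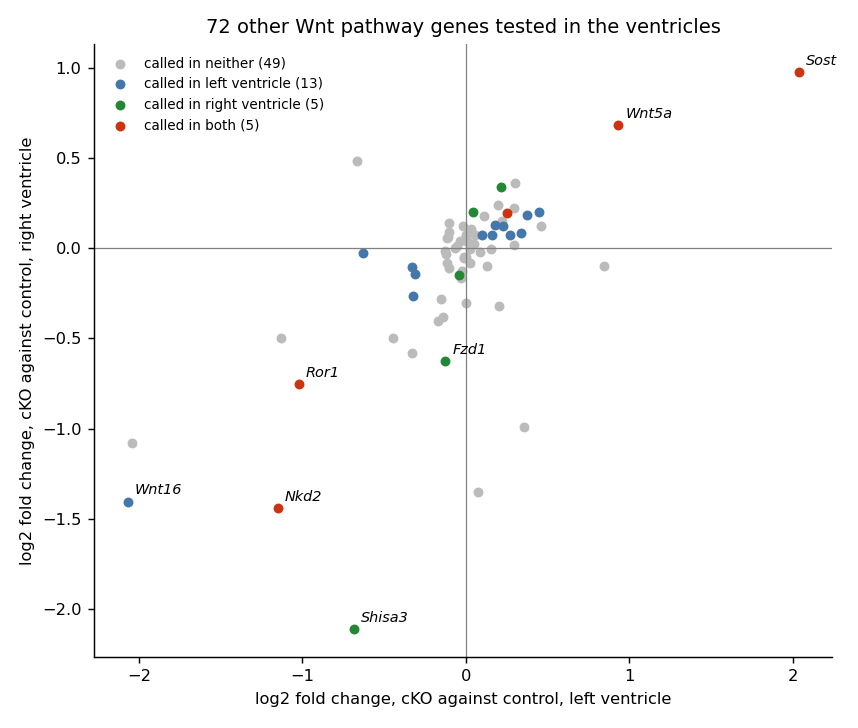
Log2 fold change of cKO against control in the left ventricle (horizontal) and right ventricle (vertical) for the 72 other Wnt pathway genes tested there, coloured by whether the gene was called in neither (49), the left alone (13), the right alone (5) or both (5). Sost and Wnt5a lie at the upper right and Ror1 and Nkd2 at the lower left.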

How the data were processed

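Bulk RNA-seq of 22 mouse heart libraries was analysed. The deposited estimated counts and TPM values per transcript were made by the authors. The submitters' processing notes name Salmon 1.2.1, DESeq2 1.22.2 and the builds GRCm38.p6 and mm10. Per the labels' protocols, libraries came from a stranded mRNA kit. Estimated counts and TPM were here summed per gene with GENCODE M21. Of 140658 transcripts, 521 did not match and were left out (at most 0.204% of reads). Estimated counts were rounded to whole numbers and tested with edgeR 4.0.16 (TMM factors, quasi-likelihood F test, Benjamini-Hochberg adjustment, threshold 0.05) in R 4.3.3. Whole hearts were fitted alone (19160 genes passed the filter on low counts) and the 16 ventricle libraries in 1 model of 4 groups (16448 genes). Standard errors were taken from each fold change and its F statistic (|log2 fold change| over root F). TPM was used for levels, with a pseudocount of 1 where logged. Estimated reads per library give the depth, and the number of libraries limits the precision.

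Alternatives were other scaling factors and filters, DESeq2 1.42.0, length-scaled counts, limma 3.58.1 on log2(TPM + 1), each ventricle alone, a replicate block and leaving out each library. The tests were tried on simulated counts. The genes named by rule are the members, Prdm16 and the 5 genes most like Dkk3. From each pathway list they are up to 3 called genes with the smallest p. Marker genes and a few other pathway genes are named besides. The members and lists were chosen with earlier results of these data known.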

Additional observations from a re-analysis of the deposited data

Results flagged for a closer look

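For each member and Prdm16, a library far from the rest was looked for in the 4 ventricle groups of 4 libraries, which made 36 groups. In 4 of them the highest library's gap to its nearest neighbour, as a share of the group's range, exceeded Dixon's critical value, which chance does in about 1 in 20 groups. Dkk3 in right ventricle control 2 was 38.3 TPM, against 11.1 to 12.5 in the other 3 controls. Sfrp2 in the same library was 89.9 TPM, against 1.23 to 3.45. Dkk2 in left ventricle cKO 4 was 1.67 TPM, against 1.21 to 1.27, and Sfrp5 in that library was 5.82 TPM, against 4.33 to 4.49.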

How the results depend on the processing

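Of 739 alternative values of the members' log2 fold changes, 669 kept their direction and their side of the threshold, 27 gained a call, 17 lost one and 26 changed sign. For each comparison these leave out only libraries of the groups compared. Calls gained without right ventricle control 2 by Dkk2 and Sfrp1 in the left ventricle and by Frzb in left against right cKO are therefore not among them. The cause of each change was not tested. With all libraries edgeR called 773 genes in the whole heart, 4216 in the left ventricle, 1696 in the right, 236 for the difference between ventricles, and 3462 (controls) and 5398 (cKO) for left against right. DESeq2 called 1727 in the whole heart and 467 for the difference. Length-scaled counts gave 135, 2684, 829, 64, 1693 and 3205 in the order above. Limma on log2(TPM + 1) gave 82, 2637, 721, 46 and 1387 in the first 5. The right ventricle fitted alone gave 1052. Leaving out each library in turn gave 184 (without whole heart cKO 2) to 1292 (without whole heart control 1) in the whole heart, and 125 to 358 for the difference.

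Limma moved Dkk2 in the left ventricle to 0.63 (called), Dkk3 in left against right controls to 0.083, Sfrp1 to 0.074 in the whole heart and −0.017 for left against right cKO, and Wif1 in the right ventricle to 0.46 (not called). Length-scaled counts gave Sfrp1 0.019 in the whole heart and −0.15 for left against right cKO (not called), and Wif1 0.62 in the right ventricle (not called) and 0.0097 for the difference. Library totals gave Sfrp1 −0.090 for left against right cKO (not called). Each ventricle alone called Dkk2 (1.32), Sfrp1 (−0.16) and Wif1 (0.54) on the left and lost Wif1 (0.60) on the right. RLE factors and DESeq2 called Sfrp1 on the left (both −0.17), and DESeq2 called Wif1 in the whole heart (0.83). Without a filter Sfrp2 was called in the right ventricle (−3.27) and in left against right controls (−2.66), and Wif1 in the whole heart (0.84). With at least 1 CPM, Sfrp2 in the right ventricle (−3.28) and Wif1 in the whole heart (0.83) were called.

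Leaving out each library of the groups compared in turn gave these ranges of log2 fold change. In the whole heart they were −0.13 to 0.19 for Dkk1, 0.40 to 0.70 for Dkk2, −0.015 to 0.25 for Sfrp2 and 0.70 to 1.0 for Wif1. In the left ventricle they were −0.20 to −0.13 for Sfrp1, −0.16 to 0.60 for Sfrp2 and −0.063 to 0.11 for Sfrp5. In the right ventricle they were −1.40 to 0.017 for Dkk2, −0.012 to 0.098 for Sfrp1, −3.97 to −0.18 for Sfrp2, −0.35 to 0.18 for Frzb and 0.43 to 0.73 for Wif1. For left against right controls they were 0.56 to 1.88 for Dkk2, −0.32 to 0.44 for Dkk3, −0.013 to 0.098 for Sfrp1, −3.18 to 0.44 for Sfrp2 and −0.036 to 0.50 for Frzb. For left against right cKO the range was −0.20 to −0.13 for Sfrp1. For the difference between ventricles they were −0.027 to 0.51 for Frzb and −0.19 to 0.11 for Wif1.

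Alternatives for the Wnt pathway lists were chosen after seeing the data. With all libraries 6 of these genes were called in the whole heart, 10 in the right ventricle, 0 for the difference and 19 for left against right controls. DESeq2 called 15 in the whole heart and 1 for the difference. Length-scaled counts and limma each called 0 in the whole heart, 6 in the right ventricle and 11 in left against right controls, and the right ventricle alone called 5. Leaving out 1 library gave 0 to 8, 6 to 18, 0 to 3 and 13 to 29. Of 40 log2 ratios of mean TPM, 7 moved by more than the replicate spread when CPM was used. They became −0.0802 for Sfrp1, 0.088 for Sfrp2, 0.14 for Sfrp5 and 0.83 for Wif1 in the whole heart, 0.54 for Wif1 in the left ventricle, and −0.17 for Sfrp1 and 0.47 for Frzb in left against right cKO.

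Groups share replicate numbers, but the labels do not say that a number pairs libraries. Same-numbered deviations correlated at −0.129 to −0.00628 between whole heart cKO and control, 0.0352 to 0.103 in the left ventricle, −0.0189 to 0.0923 in the right, 0.0573 to 0.238 between left and right cKO and −0.107 to 0.093 between left and right controls. Each library correlated best with its own number only between left and right cKO (4 of 4). With the replicate block, 218 genes were called in the whole heart and 926 in the right ventricle, and 2, 5 and 1 pathway genes in the whole heart, the right ventricle and the difference. The block gave Dkk2 1.40 and Sfrp1 −0.17 in the left ventricle (both called), Wif1 0.57 in the right (not called) and Dkk3 0.0095 in left against right controls. Dkk1 had at most 13.6 estimated reads in any ventricle library and Wif1 at most 27 in the left ventricle.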
